A study of Homo sapiens with 4 samples.

Results

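The genes described here are 6 of the MHC class II antigen presentation pathway and its control: HLA-DQB1, HLA-DMA, HLA-DMB, CD74, CIITA and RFX5. They were chosen by gene symbol, with their values in these same libraries already known, and all 6 have a row among the 19389 protein-coding genes of the authors' table. The RNA was that of SW620 cells, a colorectal cancer line of human origin. The comparison was between H2O2-treated cells (2 libraries, exposed to hydrogen peroxide at 150 µM for 2 days) and control cells (2 libraries, no treatment named). The series' design text writes the same dose in mM, so its unit is stated in both ways, and the series title calls the treated cells senescent. Whether a group's 2 libraries were grown as separate cultures is not stated, so every p-value here reflects nothing but library-to-library spread, which may be technical. Levels are in FPKM, fragments scaled to transcript length and library size, which can be compared between genes because they are per length. Read depth is unknown. In a bulk sample, a change in the number of cells that carry an mRNA and a change in its amount per cell cannot be told apart.

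MHC class II molecules are pairs of an alpha and a beta chain (DR, DP and DQ) that display peptides from the endosomal pathway to CD4+ T cells. The invariant chain, encoded by CD74, fills the groove of a new class II molecule and steers it to endosomes, where cathepsins trim it, and the DM dimer (HLA-DMA with HLA-DMB) exchanges the last fragment for a peptide. The promoters of these genes carry X and Y boxes. RFX5, with RFXANK and RFXAP, binds the X box, NF-Y binds the Y box, and CIITA, which interferon-gamma induces in most cells outside the immune system, is recruited by that complex and sets the level of transcription.

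The promoters are shown because the 4 genes below hold letters like those of the X and Y boxes, through which RFX5 and CIITA are known to act, and differ in their levels. The RefSeq table (GRCh38.p14, 250 bases before to 50 after the start of transcription) matched 5 of the 6 genes, and CIITA is named only. All 4 lie on the minus strand, at chr6:32666608-32666907 for HLA-DQB1, chr6:32953048-32953347 for HLA-DMA, chr6:32940979-32941278 for HLA-DMB and chr5:150412861-150413160 for CD74, and are written 5′ to 3′ on the strand of the gene. Capitals mark the Y box letters CTGATTGG, the CCAAT box on either strand (ATTGG when reversed, which the Y box contains), and the letters GATGANG on the printed strand, chosen after these 4 promoters were read.
HLA-DQB1: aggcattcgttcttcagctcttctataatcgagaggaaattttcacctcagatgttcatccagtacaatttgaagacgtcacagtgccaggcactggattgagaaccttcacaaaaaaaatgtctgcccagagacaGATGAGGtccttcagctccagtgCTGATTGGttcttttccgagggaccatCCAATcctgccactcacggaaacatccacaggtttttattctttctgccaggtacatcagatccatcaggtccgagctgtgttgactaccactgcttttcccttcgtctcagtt
HLA-DMA: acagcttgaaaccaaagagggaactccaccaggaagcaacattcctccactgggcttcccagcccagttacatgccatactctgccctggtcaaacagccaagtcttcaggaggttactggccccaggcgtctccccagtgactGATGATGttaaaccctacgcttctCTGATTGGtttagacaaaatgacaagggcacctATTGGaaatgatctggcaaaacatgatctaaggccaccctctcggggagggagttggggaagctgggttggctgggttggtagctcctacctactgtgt
HLA-DMB: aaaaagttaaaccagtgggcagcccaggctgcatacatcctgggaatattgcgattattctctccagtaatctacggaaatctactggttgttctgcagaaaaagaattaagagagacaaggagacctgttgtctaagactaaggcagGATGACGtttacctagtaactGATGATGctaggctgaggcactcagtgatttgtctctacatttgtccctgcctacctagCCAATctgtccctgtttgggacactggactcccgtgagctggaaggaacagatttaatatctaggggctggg
CD74: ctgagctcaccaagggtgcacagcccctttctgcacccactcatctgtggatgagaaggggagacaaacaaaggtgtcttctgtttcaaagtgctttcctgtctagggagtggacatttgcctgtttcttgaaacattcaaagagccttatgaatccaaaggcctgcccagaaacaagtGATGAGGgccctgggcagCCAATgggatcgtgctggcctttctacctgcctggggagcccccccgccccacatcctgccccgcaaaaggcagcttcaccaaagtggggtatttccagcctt

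The Y box letters stood 91 bases before the start in HLA-DQB1 and 82 in HLA-DMA, and were in 3.97% of the 35116 promoters of the table on either strand. The third member that held them was RFX5 itself, in reverse, 177 bases before the first of its starts. A CCAAT box was in the first listed promoter of all 5 matched members, against 34.6% of all promoters, and RFX5 has 3 listed promoters of which the other two hold none. GATGANG lay 114 bases before the start in HLA-DQB1, 106 in HLA-DMA, 71 in CD74, and at both 102 and 81 in HLA-DMB, against 11.7% of promoters on either strand. In HLA-DQB1, HLA-DMA and CD74 it was followed by a CCAAT box 26, 27 and 18 bases on, counted from start to start, and 0.402% of promoters had such a pair 10 to 40 bases apart. Since the letters were picked from these sequences, that share describes them and tests nothing. HLA-DRB1, HLA-DQB2 and HLA-DOB, 3 of 9 matched class II chain genes outside the members, had the same arrangement at 26, 26 and 25 bases, and the levels of these genes are given further on.

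RFX5, the DNA-binding subunit that recognises the X box (chromosome 1, 151340640 to 151347357, hg38, minus strand), was the most abundant member. Its level was 21.4 and 25.3 FPKM in H2O2-treated libraries 1 and 2, against 21.0 and 24.7 FPKM in control libraries 1 and 2. The groups overlapped almost completely, and in each group the library numbered 2 was the higher. Mean levels were 23.4 ± 2.74 FPKM in H2O2-treated cells and 22.9 ± 2.65 FPKM in control cells (SD, n = 2 each), a log2 change of 0.03 ± 0.18 (SE). With 1 library left out that change ran between -0.083 and 0.15, so it had no settled sign.

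CIITA, the coactivator that switches class II transcription on (chromosome 16, 10866222 to 10943021, plus strand), was close to absent. It was listed at 0 and 0.00186 FPKM in H2O2-treated libraries 1 and 2, against 0 and 0.00212 FPKM in control libraries 1 and 2. Only the library numbered 2 of each group showed a value above 0, and neither group stood above the other. The gene did not meet the abundance filter of at least 1 FPKM in at least 2 libraries. RFX5 thus stood at more than 20 FPKM in every library in which its coactivator was at or near 0.

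HLA-DQB1, a beta chain of the DQ molecule (chromosome 6, 32659467 to 32668383, minus strand), differed between the groups by more than any other member above 1 FPKM. It had 4.41 and 8.50 FPKM in H2O2-treated libraries 1 and 2, against 2.36 and 2.44 FPKM in control libraries 1 and 2. Both treated libraries lay above both controls, and the treated pair was also the wider one. The mean was 6.46 ± 2.89 FPKM in H2O2-treated cells and 2.40 ± 0.0566 FPKM in control cells (SD, n = 2 each), with a log2 change of 1.08 ± 0.29 (SE), where the pseudocount of 1 understates changes of low genes. Same-numbered libraries differed by 1.87-fold for number 1 and 3.49-fold for number 2. An antisense transcript, HLA-DQB1-AS1, overlaps the gene on the other strand, and how the authors' counting treated strand is not stated.

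The DM genes, whose dimer edits the peptides that class II molecules carry, were less clear. HLA-DMA, the alpha chain (chromosome 6, 32948613 to 32969094, minus strand), had 5.49 and 11.9 FPKM in H2O2-treated libraries 1 and 2, against 5.54 and 6.92 FPKM in control libraries 1 and 2. Treated library 1 matched control library 1, and treated library 2 alone lay above both controls, so the groups overlapped. The log2 change was 0.35 ± 0.33 (SE), and it was -0.15 without treated library 2 and 0.84 without treated library 1.

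HLA-DMB, the beta chain (chromosome 6, 32934629 to 32941070, minus strand), had 1.60 and 2.26 FPKM in H2O2-treated libraries 1 and 2, against 1.40 and 1.48 FPKM in control libraries 1 and 2. Both treated libraries were above both controls by a small margin. The log2 change was 0.26 ± 0.21 (SE), or 0.07 after quantile normalization, under which the groups overlapped. The level of HLA-DMA was 3.42 and 5.26 times that of HLA-DMB in H2O2-treated libraries 1 and 2, and 3.95 and 4.68 times in control libraries 1 and 2. These ratios overlap between the groups, so the balance of the chain mRNAs did not separate them. The authors' locus for both genes is a single stretch that also holds BRD2 and AL645941.2, a coding transcript that overlaps both DM genes on their own strand. AL645941.2 was assigned 9.94e-31 and 1.14e-52 FPKM in the treated libraries, against 1.58e-78 and 7.31e-125 FPKM in the controls, effectively 0 in each. How fragments of the shared stretch were divided may bear on both DM levels, which was not tested.

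CD74 (chromosome 5, 150401637 to 150412929, minus strand) was low throughout. It had 0.199 and 0.490 FPKM in H2O2-treated libraries 1 and 2, against 0.0281 FPKM in control library 1 and a listed 0 in control library 2. Both treated libraries were above both controls, at levels under the abundance filter. Between the libraries numbered 1 the ratio was 7.10, and no ratio is given for those numbered 2. On the log2(FPKM + 1) scale its change was 0.40, and with pseudocounts of 0.1 and 5 it was 1.89 and 0.092, so its size depends on the pseudocount. Ranked among the genes above 0 in the same library, CD74 sat at percentile 17.2 and 22.8 in the treated libraries and 5.34 in control library 1, while HLA-DQB1 sat at 41.1 and 53.9, against 31.1 and 32.1.

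**Figure D1:**
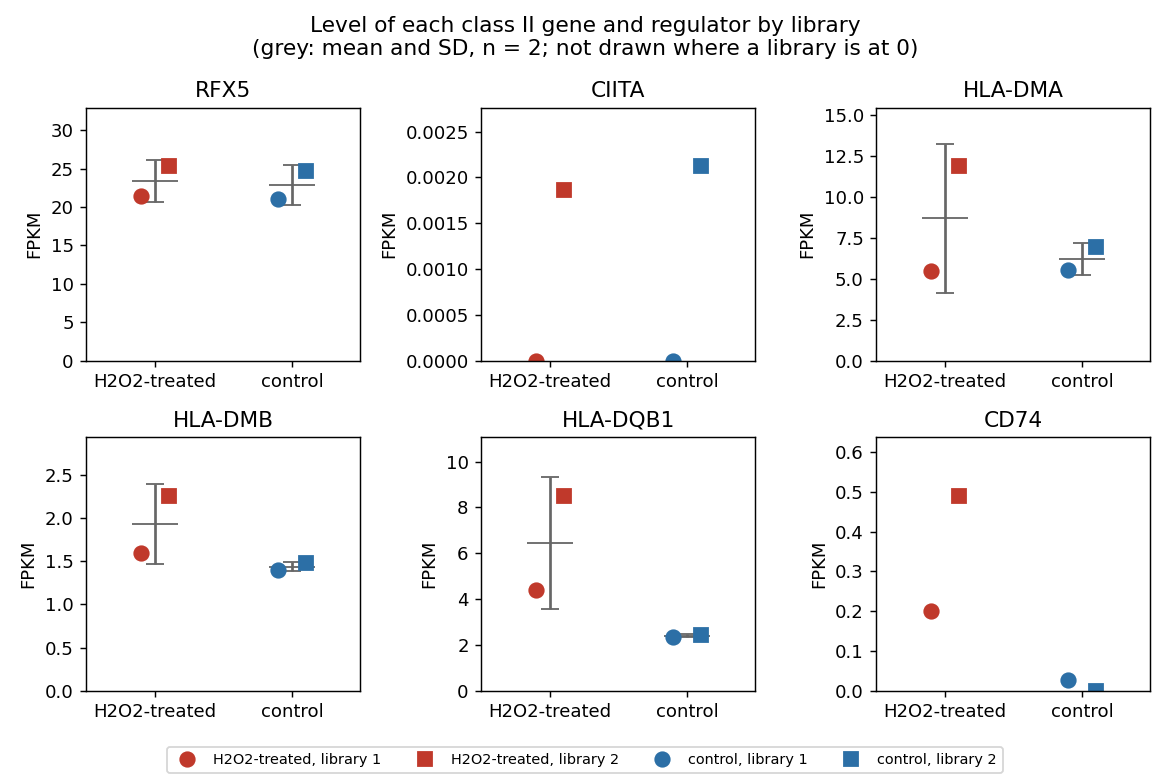
FPKM of each of the 6 genes (vertical axes, linear from 0, 1 scale per panel) in the 2 H2O2-treated libraries (red) and the 2 control libraries (blue), with circles for library 1, squares for library 2 and grey bars for the mean and SD where no library is at 0. HLA-DQB1, HLA-DMB and CD74 have both treated points above both control points, while RFX5, CIITA and HLA-DMA overlap.

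In all, 4 of the 6 genes met the filter and 2, CD74 and CIITA, did not. Both treated libraries were above both controls for 3 of the 6, and for none were both below. Among all 19389 genes 20.1%, and among the 11318 genes that met the filter 19.3%, had both treated libraries above both controls, and 24.0% had both below. Because the 6 were chosen with these values known, their count is a description and carries no test. The median log2 change over all 6 was 0.30, against a median of -0.029 over the 11318 genes, and it was 0.49 without treated library 1 and 0.046 without treated library 2. By level, the order RFX5, HLA-DMA, HLA-DQB1, HLA-DMB, CD74, CIITA held in 3 of the 4 libraries, and in control library 2, where CD74 was listed at 0, CIITA stood above it. HLA-DMA was above HLA-DQB1 within each library. Their ranges overlapped in treated cells, at 5.49 to 11.9 and 4.41 to 8.50 FPKM. In control cells, at 5.54 to 6.92 and 2.36 to 2.44 FPKM, they did not. Such ranges leave out that both genes were read in the same libraries, and the difference between the genes was not tested.

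The library number moved with several of the genes. Treated library 2 was the highest of the 4 for 5 of the 6 genes, against 24.8% of tested genes. The exception was CIITA. Library 2 exceeded library 1 in the treated group for 6 of 6 genes and in the control group for 5 of 6. It did so in both groups at once for 5 of 6, against 31.7% of tested genes. The 5 include CIITA, which was at 0 in library 1 and at or below 0.00212 FPKM in library 2 of each group. Both shares are over tested genes, which leave out CD74 and CIITA, so they are not of the same kind as the member counts. Within the treated pair the ratio of library 2 to library 1 was 1.93 for HLA-DQB1, 2.17 for HLA-DMA, 1.41 for HLA-DMB, 2.46 for CD74 and 1.18 for RFX5. Within the control pair it was 1.03, 1.25 and 1.05 for the HLA genes in the same order, and 1.18 for RFX5. RFX5 was therefore sorted by library number, with the same ratio in both groups, and HLA-DQB1 by group. What the number stands for is not stated in the labels, and its part in these levels was not tested.

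Across the 4 libraries, each tested member was set beside the other 11317 tested genes by the Euclidean distance between profiles of log2(FPKM + 1) centred on their mean. The nearest to HLA-DQB1 were ARHGAP29, at a distance of 0.0757, and CAPN5, a calpain protease gene, at 0.0799. HLA-DMA was nearest to HIST1H2BC (0.0755) and KRTAP3-2 (0.0875), HLA-DMB to INPP5J (0.0169) and TPST1 (0.0333), and RFX5 to TMLHE (0.0137) and RWDD2B (0.023). No member was among the nearest genes of another. Seen from HLA-DQB1, 575 genes were nearer than HLA-DMA and 2987 were nearer than RFX5, and seen from HLA-DMA, 761 were nearer than HLA-DMB. With so few libraries many genes share any given profile, so nearness says little about a single pair.

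**Figure D2:**
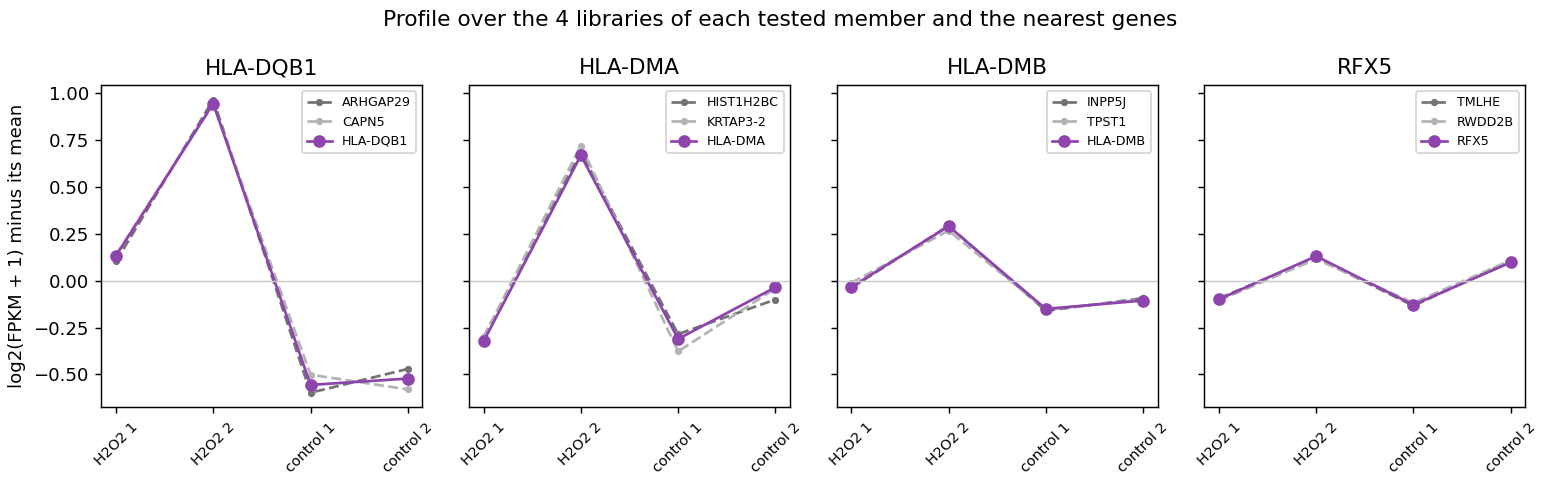
Centred log2(FPKM + 1) (vertical axis) of each tested member (purple) and of its 2 nearest genes (grey, dashed) in H2O2-treated libraries 1 and 2 and control libraries 1 and 2. HLA-DQB1 falls into a high treated pair and a low control pair, HLA-DMA peaks in treated library 2, and RFX5 alternates with the library number.

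The other class II chains were nearly silent. Of 12 chain genes outside the members, 10 have a row, and HLA-DRB3 and HLA-DRB4 are not analysed here. None met the filter, 9 of the 10 were listed at 0 in both controls, and 5 were listed at 0 in all 4 libraries: HLA-DRB5, HLA-DPB1, HLA-DQA1, HLA-DQA2 and HLA-DQB2. HLA-DQA1 encodes the alpha chain that pairs with the product of HLA-DQB1, so the beta chain mRNA was present without a listed alpha chain mRNA. HLA-DRA, the alpha chain of DR, had 0.0352 and 0.186 FPKM in H2O2-treated libraries 1 and 2, and was listed at 0 in both controls. HLA-DPA1, the alpha chain of DP, had 0.0858 and 0.188 FPKM in the treated libraries and was listed at 0 in both controls. For both, the higher of these low values was in treated library 2, as for CD74. Over all genes, 15371 and 15828 were above 0 in H2O2-treated libraries 1 and 2, against 14563 and 14716 in control libraries 1 and 2, and the part of that difference in the low class II values was not tested. HLA-DRB1 was above 0 in treated library 2 only, at 0.147 FPKM. HLA-DOA, a chain of the DO dimer that restrains DM, was above 0 in treated library 1 only, at 0.0101 FPKM. HLA-DOB, the other DO chain, had 0.850 and 0.547 FPKM in H2O2-treated libraries 1 and 2, against 0.456 and 0.435 FPKM in control libraries 1 and 2, and was the only one of the 10 above 0 in a control library. HLA-DRB1, HLA-DQB2 and HLA-DOB carry the arrangement of promoter letters described above, as HLA-DQB1 does. The levels of HLA-DRB1 and HLA-DQB2 were at or near 0, while HLA-DOB was above 0 in all 4 libraries. The part of the letters in these levels was not tested.

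The class II region of chromosome 6, taken from HLA-DRA to HLA-DPB1 (32439842 to 33087201), holds 20 coding genes, all with a row, of which 3 are members and 17 are not. Of those 17, 5 met the filter, all between HLA-DOB and HLA-DOA. They were named because they are the tested genes of the region. PSMB9, an immunoproteasome subunit, had 2.44 and 8.85 FPKM in H2O2-treated libraries 1 and 2, against 0.897 and 1.33 FPKM in control libraries 1 and 2. PSMB8, another immunoproteasome subunit, had 18.6 and 36.8 FPKM in the treated libraries, against 14.8 and 12.5 FPKM in the controls. Both had their treated libraries above their controls and treated library 2 highest, the profile also seen in HLA-DQB1. By limma, a linear model fitted over all tested genes, their log2 changes were 1.47 ± 0.47 (SE; adjusted p = 0.369) and 0.90 ± 0.32 (SE; adjusted p = 0.404). PSMB9 met the filter only with its treated values, as control library 1 lay under 1 FPKM. The genes of the region were added after their values were seen, so the likeness to HLA-DQB1 is a description. TAP2, a subunit of the peptide transporter for class I, had 17.0 and 13.7 FPKM in the treated libraries, against 11.0 and 11.0 FPKM in the controls (limma adjusted p = 0.445). TAP1 and BRD2 overlapped between the groups. None of the 5 passed an adjusted p of 0.05.

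**Figure D3:**
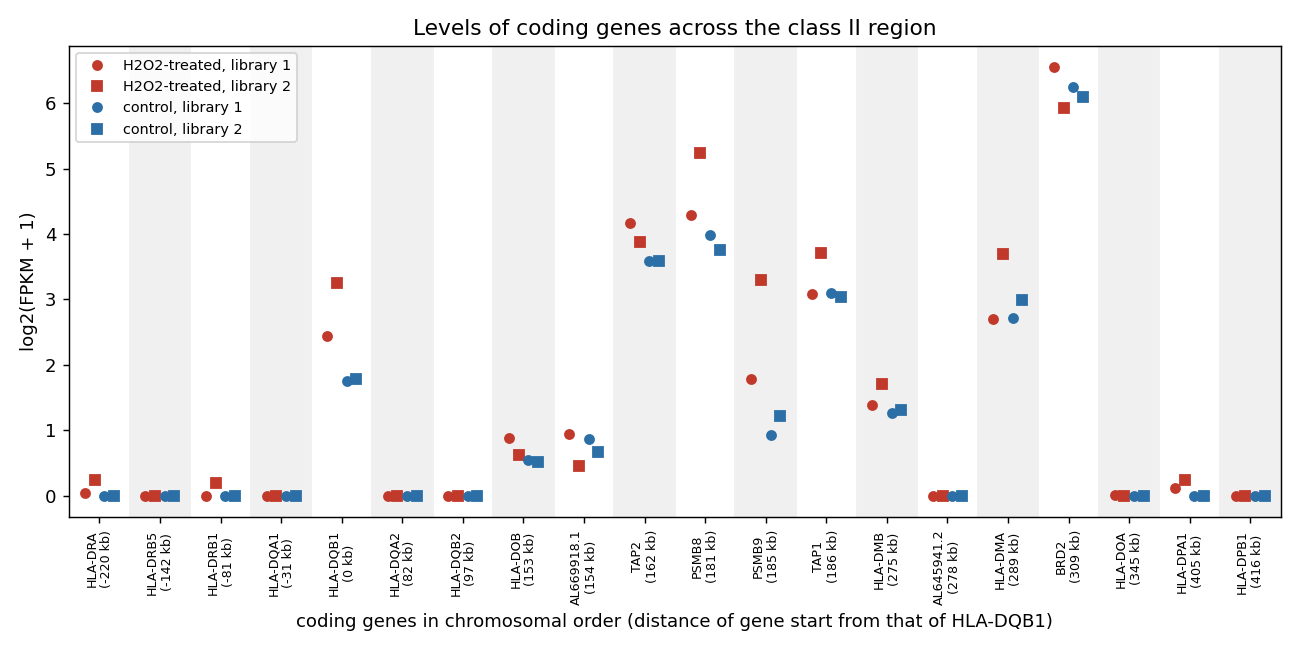
Level as log2(FPKM + 1) (vertical axis) of the 20 coding genes of the class II region in chromosomal order, with the distance in kilobases of each gene's start from that of HLA-DQB1 in brackets, for the H2O2-treated libraries (red) and the control libraries (blue). HLA-DQB1 stands alone between neighbours at 0, and the other genes above 1 FPKM lie between HLA-DOB and HLA-DOA.

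Genes of the wider pathway were taken from 8 lists of known roles, 57 genes outside the members, of which 55 have a row and 36 met the filter. By limma 0 of the 36 passed an adjusted p of 0.05, as did 0.00% of all 11318 genes, and 6 had an unadjusted p under 0.05, 4 higher and 2 lower, which is 16.7% against 11.1% of all tested genes. Both treated libraries lay above both controls for 10 of the 36 (27.8%, against 19.3% of tested genes) and below for 7 (19.4%, against 24.0%). Their median log2 change was -0.049. The lists were chosen with earlier results of these data known. The 10 also include SOCS1 and JAK2, which met the filter only through their treated values. These shares are therefore descriptions and carry no test.

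The partners of RFX5 at the promoter were all expressed, and none passed the test. RFXANK, a subunit of the same complex, had 60.8 and 65.1 FPKM in H2O2-treated libraries 1 and 2, against 71.1 and 71.0 FPKM in control libraries 1 and 2, a log2 change of -0.17 (limma adjusted p = 0.743) that was 0.011 after rescaling to TPM. NFYC, a subunit of NF-Y, had 14.8 and 13.2 FPKM in the treated libraries, against 19.0 and 20.1 FPKM in the controls, with a log2 change of -0.45 ± 0.16 (SE; limma adjusted p = 0.413). NFYB, another subunit, had a log2 change of -0.28 (limma adjusted p = 0.602). For 3 of the 7 partners both treated libraries were below both controls, against 24.0% of all tested genes, and for none were both above, against 19.3%. The median log2 change of the 7 was -0.17. Rescaling to TPM moved the median change of all tested genes by 0.17, which is as large. After it the log2 change of NFYB was -0.10 and that of NFYC -0.28.

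Cofactors that CIITA recruits had a median log2 change of -0.074 over 6 genes. KAT2B, an acetyltransferase, had 1.52 and 1.93 FPKM in H2O2-treated libraries 1 and 2, against 1.13 and 1.18 FPKM in control libraries 1 and 2 (limma adjusted p = 0.605). SMARCA4, a chromatin remodelling ATPase, and CARM1, a methyltransferase, had log2 changes of -0.25 and -0.27, and their limma adjusted p values were 0.677 and 0.696. Upstream of CIITA, the interferon-gamma gene IFNG was listed at 0 in every library, while its receptor and signalling genes were expressed. SOCS1, an inhibitor of that signal, had 1.33 and 1.84 FPKM in the treated libraries, against 0.866 and 0.909 FPKM in the controls (limma adjusted p = 0.507), and JAK2, the receptor's kinase, had 1.02 and 1.20 FPKM, against 0.683 and 0.655 FPKM in the controls (limma adjusted p = 0.604). SOCS1 and JAK2 were tested only because of their treated values, both controls lying under 1 FPKM, and could not have appeared lower. For 4 of the 10 tested genes of this list, SOCS1 and JAK2 among them, both treated libraries were above both controls, against 19.3% of all tested genes. For 1 both were below, against 24.0%.

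Among proteases and other enzymes of antigen processing, CTSB had 157 and 136 FPKM in H2O2-treated libraries 1 and 2, against 113 and 65.1 FPKM in control libraries 1 and 2, a log2 change of 0.77 ± 0.28 (SE; limma adjusted p = 0.414). CTSL had 5.06 and 7.55 FPKM in the treated libraries, against 4.35 and 3.93 FPKM in the controls (limma adjusted p = 0.488). IFI30, the thiol reductase of endosomes, lay the other way, at 48.9 and 75.2 FPKM in the treated libraries, against 74.4 and 105 FPKM in the controls (limma adjusted p = 0.539). CTSS, the cathepsin that makes the last cuts in the invariant chain, was too low to be tested, at 0.332 and 0.849 FPKM, against 0.0231 and 0.0711 FPKM in the controls. As for CD74, both treated libraries lay above both controls. Of the ligases that turn class II molecules over, MARCH8 had a log2 change of -0.12 (limma adjusted p = 0.845), or 0.048 after rescaling to TPM, and MARCH1 was listed at 0 in all 4 libraries.

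CD74 also acts at the cell surface as a receptor for the cytokine MIF. MIF had 508 and 675 FPKM in H2O2-treated libraries 1 and 2, against 812 and 918 FPKM in control libraries 1 and 2, a log2 change of -0.56 ± 0.22 (SE; limma adjusted p = 0.425). CD44, the signalling partner of CD74, had 3.40 and 8.47 FPKM in the treated libraries, against 2.38 and 2.58 FPKM in the controls. Its log2 change was 0.89 ± 0.36 (SE; limma adjusted p = 0.439), and it was 1.45 without treated library 1 and 0.34 without treated library 2. DDT, a relative of MIF, had a log2 change of -0.54 (limma adjusted p = 0.598). Of the co-stimulatory and adhesion genes, ICAM1, which binds an integrin of T cells, was the one tested, at 2.53 and 3.87 FPKM in the treated libraries, against 1.34 and 1.12 FPKM in the controls (limma adjusted p = 0.308). CD80 was listed at 0 in all 4 libraries.

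**Figure D4:**
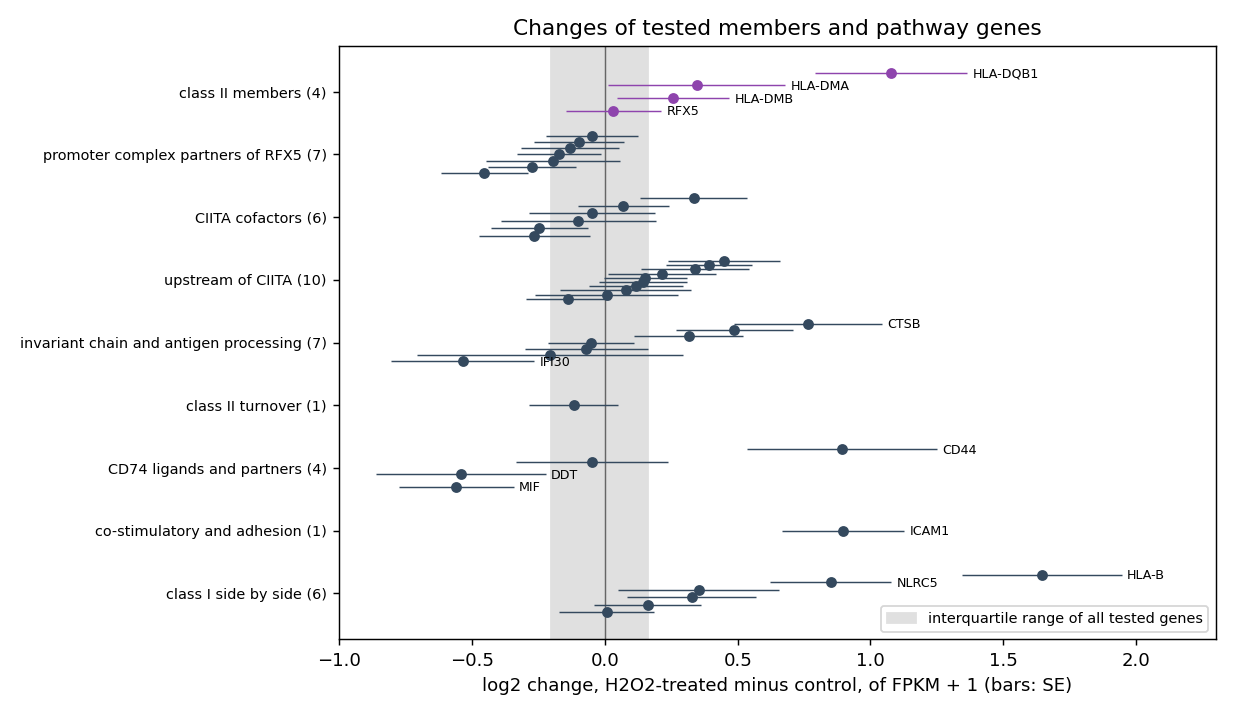
Log2 change of FPKM + 1, H2O2-treated minus control (horizontal axis, bars for SE), of the 4 tested members (purple) and of the tested genes of each list (dark, number in brackets), with the interquartile range of all 11318 tested genes, -0.20 to 0.16, in grey. HLA-DQB1 at 1.08 lies outside that band and RFX5 at 0.03 inside it, and most genes of the lists have bars that reach 0 or the band.

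Class I genes, set beside them, were abundant. HLA-B had 39.7 and 54.7 FPKM in H2O2-treated libraries 1 and 2, against 19.0 and 10.5 FPKM in control libraries 1 and 2 (limma adjusted p = 0.222, or 0.0227 without control library 1). NLRC5, the CIITA relative that controls class I genes, had 1.33 and 1.28 FPKM in the treated libraries, against 0.452 and 0.129 FPKM in the controls (limma adjusted p = 0.311), and it too was tested only because of its treated values. TAP1, with 7.44 and 12.1 FPKM in the treated libraries and 7.56 and 7.23 FPKM in the controls, had a limma adjusted p of 0.677. Whether class I and class II genes differ in their response was not tested.

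Professional antigen-presenting cells carry class II in large amounts, so their markers were read in the same libraries. The summed level of 9 markers of monocytes, macrophages and dendritic cells was 8.67 and 19.4 FPKM in H2O2-treated libraries 1 and 2, against 2.61 and 2.74 FPKM in control libraries 1 and 2, and 6 of the 9 had both treated libraries above both controls, as 20.1% of all genes did. Most of that sum was CD68, a lysosomal protein gene, at 7.65 and 17.7 FPKM, against 1.92 and 1.83 FPKM in the controls, and TYROBP was listed at 0 in every library. The sum of 5 B cell markers was 0.419 and 1.81 FPKM in the treated libraries, against 0.151 and 0.361 FPKM in the controls, with 2 of 5 above, and 1.24 FPKM of the sum in treated library 2 was CD79B. The sum of 5 general leukocyte markers was 127 and 166 FPKM in the treated libraries, against 138 and 136 FPKM in the controls, with 1 of 5 above, and most of it was LCP1, at 110 and 139 FPKM in the treated libraries, against 118 and 119 FPKM in the controls. PTPRC, the defining leukocyte marker, was listed at 0 in 3 libraries and at 0.00822 FPKM in treated library 1. Treated library 2 held the highest sum of each of these 3 lists, which in that library rest largely on CD68, CD79B and LCP1, and also the highest HLA-DQB1, HLA-DMA and CD74. The part of these markers in the class II levels was not tested. Of 10 markers of colon epithelium, EPCAM, KRT8, KRT18, CDH1, VIL1 and CDX2 were tested, and CDX1 was listed at 0 in every library. Their directions were mixed, and none passed the test. Both treated libraries were below both controls for EPCAM (278 and 215 FPKM in the treated libraries, against 336 and 295 FPKM in the controls), KRT8 and VIL1. Both were above for CDH1, at 23.0 and 16.6 FPKM in the treated libraries, against 14.8 and 9.93 FPKM in the controls (limma adjusted p = 0.428), and for the untested KRT20 and CEACAM5, which were at or below 0.742 and 0.131 FPKM in each.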

How the data were processed

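The authors' deposited values are FPKM, 1 per gene and library, per the file headers, for 19389 rows that are all marked protein-coding. The submitters' processing notes name STAR 2.5, Cufflinks 2.2.1 and the build hg38, and the labels' protocols a directional library kit. Which annotation release, strand setting and filters were used is not given in these sources. FPKM from Cufflinks are estimates in which fragments of similar or overlapping genes are divided by a model, so HLA values are uncertain, and an exact 0 can be a failed estimate. With no counts, depth is unknown and no interval was computed.

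Values were transformed as log2(FPKM + 1), and the 11318 genes that reached 1 FPKM in 2 or more libraries were fitted with limma 3.58.1 in R 4.3.3, with group as the only term and a trended variance prior (2 residual and 6.28 total degrees of freedom). Its two-sided p-values, adjusted over all 11318 genes (Benjamini-Hochberg), were read at 0.05. The fit was checked on simulated libraries. The 6 members and the gene lists were chosen with earlier results of these data known, so members get no p. Other genes were named by rule: every class II chain, and up to 3 per list with the smallest p. The genes of the class II region and single markers were added after their values were seen. Coordinates come from GENCODE 29 (GRCh38) by Ensembl identifier, and promoters from RefSeq (GRCh38.p14). A total of 12 alternatives were run. Means are ± SD over n = 2 and log2 changes ± SE. Figures were drawn with matplotlib 3.10.9 in Python 3.11.15. Some results of the named lists are not reported here.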

Additional observations from a re-analysis of the deposited data

How the results depend on the processing

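Over the whole table limma called 0 genes (1260 at an unadjusted p under 0.05), against 5 where only genes with a mean of 5 FPKM or more were tested, 32 on the TPM scale, and 8 to 103 with 1 library left out. Same-numbered libraries deviated together (r = 0.451 over 11318 genes, which are not independent), but the labels do not say what a number stands for, and the fit with the number as a replicate block called 587 genes, 397 higher and 190 lower. Of the 36 pathway genes tested, the main fit called 0, against 2 (CTSB and ICAM1) with the replicate block. The fit with the block called 587 of all 11318 tested genes, so a call under it is not particular to the pathway. Pathway calls with 1 library left out are not counted here. In those settings the log2 change of CD44 was 1.45 without treated library 1 and 0.34 without treated library 2. Of the class I genes, HLA-B and NLRC5 were called with the replicate block (limma adjusted p = 0.00316 and 0.0328), and HLA-B also without control library 1 (0.0227), while its adjusted p over the other settings ran up to 0.531. The median log2 change of the 6 members, 0.30, was 0.098 with a pseudocount of 5 and 0.046 to 0.49 with 1 library left out. The count of members with both treated libraries above both controls, 3, was 2 after quantile normalization and 3 on the TPM scale. With 1 library left out, which cannot lower this count, it was 3 to 5, the 5 being without treated library 1. Rescaling to TPM moved the median change of all tested genes by 0.17 on the log2 scale, and turned RFXANK to 0.011 and MARCH8 to 0.048, below that shift. Changes of HLA-DQB1 ran from 0.61 to 1.48 over 8 other settings, and those of HLA-DMB from 0.074 to 0.43, without a change of sign. Those of HLA-DMA (-0.15 to 0.84), RFX5 (-0.083 to 0.21) and CIITA changed sign in at least 1 setting. The cause of these differences was not tested. Where a group keeps a single library, that library is assumed to vary like the other group. With 2 libraries a group and no depth, values below 1 FPKM, which cover CD74, CIITA and all other class II chains, show only that an mRNA was listed or not.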
